A study of Mus musculus with 12 samples.

Results

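The genes described here release calcium in muscle, take it back up, or hold the machinery together. They were chosen by name as 10 rows of the 18996 genes in the deposited count table, and all 10 passed the filter on low counts that left 14765 genes for testing. On the release side stand *Cacna1s*, *Cacng1* and *Ryr1*, on the reuptake side *Atp2a1*, *Atp2a2* and *Sln*, in the store *Casq1* and *Casq2*, and at the junction of the membranes *Jph1* and *Trdn*. The samples were 12 mice, 4 each with No operation, with SHAM surgery and with Laminectomy. Poly(A) RNA of whole tissue from beside the spine was sequenced. In the study the mice were BALB/c, of both sexes and 5 to 7 weeks old, no transgene or treatment drug is named for these groups (the laminectomy model used tribromoethanol anaesthesia), and the surgical samples were taken at day 7. SHAM mice had soft tissue beside the spine removed with the bone left in place. Laminectomy mice also lost the lamina over the spinal canal. By their titles the samples of both surgical groups were scar tissue, and by other labels they held scar as well as soft tissue. No operation mice had intact soft tissue beside the spine. The SHAM and Laminectomy groups were both compared with the same 4 No operation mice.

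In skeletal muscle, an electrical signal in the fibre's surface membrane reaches the voltage sensor Cav1.1, which pulls open the ryanodine receptor in the adjoining membrane of the sarcoplasmic reticulum, the fibre's calcium store. The released calcium starts contraction, and the SERCA pumps return it to the store, where calsequestrin binds it. Fast and slow fibres, and developing and mature muscle, are known to use different members of these families: SERCA1 is the pump of fast adult fibres and SERCA2a that of slow fibres and heart, while calsequestrin 1 is the main form in skeletal muscle and calsequestrin 2 that of heart, also present in slow fibres.

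The paired genes for pump and store allow a comparison of family members within a mouse, and *Casq1* and *Casq2* differed in how they stood after surgery. The sequence before their start sites is therefore shown, taken from RefSeq promoters of GRCm38.p6, which held an entry for 5 of the 10 members (*Ryr1*, *Cacna1s*, *Atp2a1*, *Casq1* and *Casq2*). Each window is 200 bases long and runs from 250 to 51 bases before the start that RefSeq gives, which for some genes differs from the GENCODE gene ends given further on, written 5′ to 3′ on the gene's strand. Capitals mark CANNTG, the core letters bound by myogenic factors such as MyoD, and the MEF2 consensus, both read on either strand.
*Casq1*, chr1:172219946-172220145, minus strand: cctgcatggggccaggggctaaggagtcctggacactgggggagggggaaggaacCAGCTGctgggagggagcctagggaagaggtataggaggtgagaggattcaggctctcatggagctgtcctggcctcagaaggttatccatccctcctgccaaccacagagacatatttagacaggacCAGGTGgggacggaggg
*Casq2*, chr3:102086165-102086364, plus strand: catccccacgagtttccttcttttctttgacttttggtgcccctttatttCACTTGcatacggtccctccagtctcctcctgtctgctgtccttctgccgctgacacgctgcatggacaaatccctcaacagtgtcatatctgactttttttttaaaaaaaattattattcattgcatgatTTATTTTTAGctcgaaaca

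The *Casq1* window held 2 matches to CANNTG, one of them CAGCTG, no MEF2 match, and 60.0% G and C. The *Casq2* window held 1 CANNTG match, no CAGCTG, 1 MEF2 match and 41.0% G and C, against a median of 51.5% over all windows. Of all 32851 windows of this length, 59.0% held CANNTG, 10.3% held CAGCTG, which is contained in CANNTG, and 2.42% held the MEF2 consensus. *Cacna1s* had 2 CANNTG matches including 1 CAGCTG, while the windows of *Ryr1* and *Atp2a1* held none of these motifs. A CArG box (1.16% of all windows) and TATAAA or its reverse TTTATA (9.14%) were found in none of the 5 windows. These matches are letters in a window, and binding was not measured.

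Read counts per mouse totalled 16802989 to 18077868, and levels are given as CPM, the count as a share of the mouse's total after TMM scaling. A call required edgeR's quasi-likelihood test to give an adjusted p under 0.05 and a log2 fold change of more than 0.5 in either direction. The tissue held muscle fibre transcripts in every group, at far lower levels after surgery. The 14 genes taken as fast fibre genes were *Acta1*, *Ckm*, *Mb*, *Tnnt3*, *Tnni2*, *Tnnc2*, *Mylpf*, *Myh4*, *Myh1*, *Myh2*, *Actn3*, *Neb*, *Ttn* and *Des*. Not all of them are particular to fast fibres. Their summed CPM was 96479 to 136775 in No operation mice, 2522 to 11285 in SHAM mice and 4092 to 15533 in Laminectomy mice. SHAM 1 and Laminectomy 1 were the lowest of their groups. In a bulk sample, fewer fibres and less RNA of a gene per fibre cannot be told apart. All 14 of these genes were called lower in both surgical groups, with a median log2 fold change of −3.94 in SHAM and −3.16 in Laminectomy.

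After SHAM surgery, 8 of the 10 members were called lower and none higher, and after Laminectomy 8 were called lower and 1 higher. The background was wide: 50.8% of all genes tested were called between SHAM and No operation mice (25.7% higher, 25.1% lower) and 48.6% between Laminectomy and No operation mice (24.2% higher, 24.4% lower). The median log2 fold change of the members was −3.49 in SHAM and −2.87 in Laminectomy, beside −0.00 and 0.01 over all genes tested. The same 8 genes fell in both surgical groups, namely *Ryr1*, *Cacna1s*, *Cacng1*, *Atp2a1*, *Atp2a2*, *Casq1*, *Jph1* and *Trdn*. The exceptions were *Casq2*, which was called in neither comparison, and *Sln*, which was called higher in Laminectomy mice. Of the members, 7 did not overlap between SHAM and No operation mice and 8 between Laminectomy and No operation mice, against 54.5% and 56.0% of all genes. In SHAM, *Sln* was called higher by DESeq2 (46.5% of its genes called) and by edgeR without SHAM 1 (48.2% called). In Laminectomy, DESeq2 (45.0% called) called 8 members lower and 1 higher, and without SHAM 1 edgeR (49.1% called) no longer called *Atp2a2*.

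**Figure D1:**
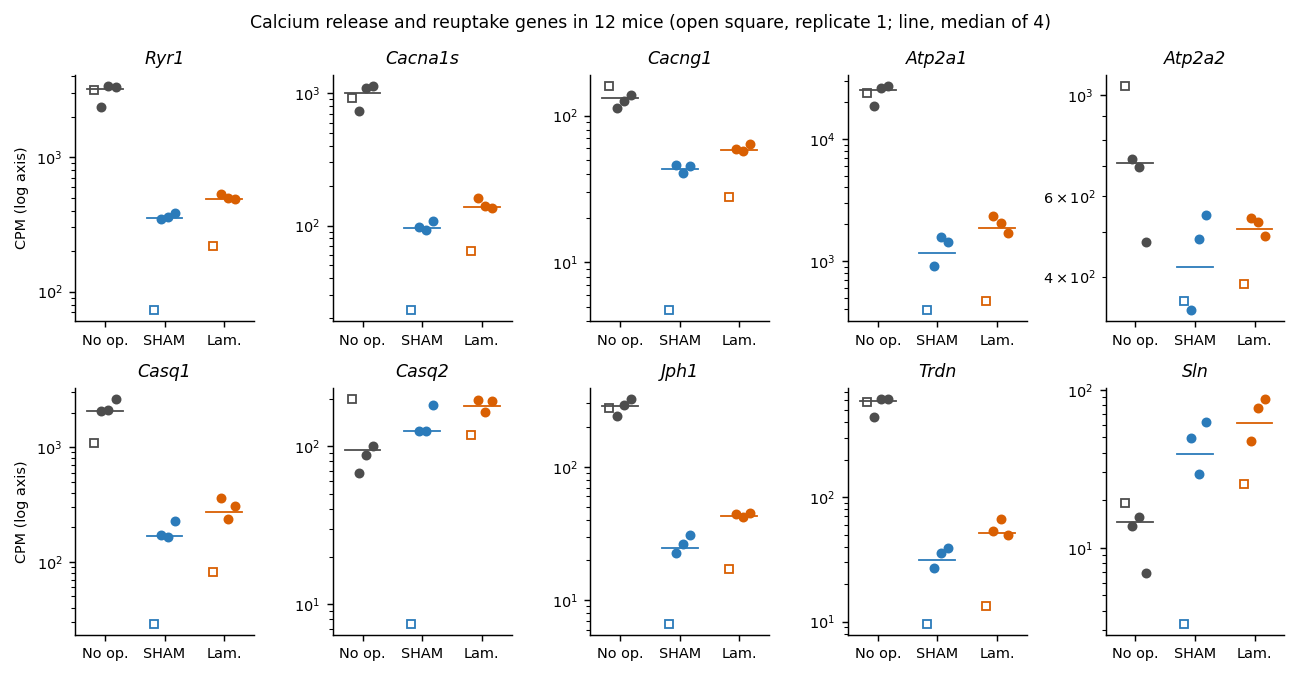
Level of each member in every mouse, in CPM on a log axis, by group (No operation, SHAM, Laminectomy); open squares are replicate 1 and lines are the median of 4 mice. *Atp2a1* lies between 18754 and 27308 CPM in No operation mice and at most at 2316 CPM after surgery, whereas *Casq2* overlaps between groups and *Sln* stands higher in Laminectomy mice.

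*Cacna1s* encodes the pore and voltage sensor of Cav1.1. The gene (identifier 12292, GRCm38 chromosome 1 from 136052750 to 136119822) had 914, 738, 1095 and 1138 CPM in No operation mice. Its levels were 22.9, 97.8, 93.3 and 109 CPM after SHAM surgery, and 64.4, 161, 140.0 and 135 CPM in Laminectomy mice. Every surgical mouse was below every No operation mouse, and replicate 1 was the lowest of each surgical group. *Cacna1s* fell by 3.59 on the log2 scale in SHAM (SE 0.453, edgeR adjusted p = 5.2e-05) and 7.76-fold in Laminectomy (log2 fold change −2.96, SE 0.440, adjusted p = 0.000188).

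*Ryr1*, the ryanodine receptor through which the calcium leaves the store (identifier 20190, chromosome 7 from 29003344 to 29125179), followed the same order of groups. No operation mice had 3150.1, 2341, 3386 and 3296 CPM. SHAM mice had 72.7, 349, 361 and 384 CPM, and Laminectomy mice 219.8, 531, 497 and 485 CPM. The groups were separate, with SHAM 1 and Laminectomy 1 well under the other mice of their groups. The decrease was 10.4-fold in SHAM (log2 fold change −3.38, SE 0.475, edgeR adjusted p = 0.000104) and 7.02-fold in Laminectomy (−2.81, SE 0.463, adjusted p = 0.000365).

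*Cacng1*, the gamma subunit of the muscle calcium channel (identifier 12299, chromosome 11 from 107703218 to 107716522), had a smaller fold decrease. It had 159.6, 112, 126 and 139 CPM in No operation mice. Levels were 4.72, 46.3, 40.8 and 45.7 CPM after SHAM surgery, and 27.7, 59.2, 57.3 and 63.7 CPM in Laminectomy mice. No surgical mouse reached the lowest No operation mouse, and the other SHAM mice averaged 9.38 times the level of SHAM 1. The fold decrease was 3.90 in SHAM (log2 fold change −1.96, SE 0.522, edgeR adjusted p = 0.00663) and 2.58 in Laminectomy (−1.37, SE 0.512, adjusted p = 0.0370). The Laminectomy call was lost without any 1 of several mice, No operation 1, 3 or 4 or any Laminectomy mouse, with adjusted p between 0.0524 and 0.0931, and with total counts in place of TMM (−1.03, adjusted p = 0.104).

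Of the partners of the voltage sensor, *Stac3*, the adaptor that Cav1.1 needs in order to reach and open the release channel, fell by 3.60 on the log2 scale in SHAM (SE 0.448, edgeR adjusted p = 4.79e-05) and fell by 2.89 in Laminectomy (SE 0.433, adjusted p = 0.000194). The auxiliary subunits fell too, with log2 fold changes in SHAM and Laminectomy of −2.48 and −1.97 for *Cacna2d1* and of −2.13 and −1.79 for *Cacnb1*. The other ryanodine receptor genes were at low levels. *Ryr3*, known from developing muscle, lay at 1.03 to 1.60 CPM in No operation mice, at 0.0562 CPM in SHAM 1 and 2.28 to 3.58 CPM in SHAM 2 to 4, and at 2.44 to 4.73 CPM in Laminectomy mice. Its log2 fold changes of 0.77 (SHAM, adjusted p = 0.336) and 1.44 (Laminectomy, adjusted p = 0.0839) were not called. Without SHAM 1, *Ryr3* was called higher in both, at 1.17 (edgeR adjusted p = 0.00572) and 1.45 (adjusted p = 0.00110), and the Laminectomy value was also called with only 2 groups fitted (1.45, adjusted p = 0.00262) and with total counts in place of TMM (1.77, adjusted p = 0.0413). Exons of *Ryr3* share 916 bases with *Aven* on the opposite strand. *Ryr2*, the cardiac and neuronal receptor, failed the filter on low counts: it had 80 and 37 counts in Laminectomy 2 and 3 and at most 6 counts in every other mouse. The same 2 libraries held the most neuron and glia marker signal, with summed CPM of 146 and 53.1 over 5 genes against at most 1.93 in every other mouse, and the part of this signal in *Ryr2* was not tested.

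*Atp2a1* encodes SERCA1, the pump of fast fibres. It was the highest of the members per length in each group, as the mean over mice, and had the largest fold decrease among them. The gene (identifier 11937, chromosome 7 from 126445858 to 126463108) had 23740.2, 18754, 26210.1 and 27308 CPM in No operation mice. SHAM mice had 394, 915, 1561 and 1417 CPM, and Laminectomy mice 474, 2316, 2029 and 1705 CPM. The groups were far apart, with the surgical mice at a small fraction of the No operation level. The decrease was 22.4-fold in SHAM (log2 fold change −4.49, SE 0.557, edgeR adjusted p = 4.73e-05) and 14.7-fold in Laminectomy (−3.88, SE 0.541, adjusted p = 0.000125). Its exons share 763 bases with *Rabep2* on the opposite strand, but that gene was at 9.99 to 24.0 CPM in all 12 mice.

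*Atp2a2*, encoding SERCA2, the pump of slow fibres, heart and (as another isoform) most other cells, had a small decrease. The gene (identifier 11938, chromosome 5 from 122453513 to 122502225) had 1050.3, 725, 697 and 476 CPM in No operation mice. Levels were 353, 337, 485 and 546 CPM after SHAM surgery, and 385, 538, 527 and 491 CPM in Laminectomy mice. The groups overlapped, since No operation 4 was lower than some mice of both surgical groups. *Atp2a2* fell 1.71-fold in SHAM (log2 fold change −0.78, SE 0.238, edgeR adjusted p = 0.0143) and 1.52-fold in Laminectomy (−0.60, SE 0.238, adjusted p = 0.0452). Neither call held with total counts in place of TMM (−0.52, adjusted p = 0.0810, and −0.28, adjusted p = 0.332), and without No operation 1 the Laminectomy value was −0.38 (adjusted p = 0.148). In all, the Laminectomy call was lost in 9 of 12 fits that left out 1 mouse (adjusted p between 0.0503 and 0.148), the exceptions being those without No operation 4, SHAM 2 or SHAM 4. The counts do not separate the isoforms of SERCA2.

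*Sln* encodes sarcolipin, a small membrane protein that binds and inhibits SERCA. The gene (identifier 66402, chromosome 9 from 53850164 to 53854560) had 19.3, 13.7, 15.7 and 6.94 CPM in No operation mice. It had 3.32, 49.6, 29.3 and 63.0 CPM after SHAM surgery, and 25.3, 47.1, 76.5 and 87.5 CPM in Laminectomy mice. All 4 Laminectomy mice and 3 of 4 SHAM mice were above every No operation mouse, while SHAM 1 was the lowest of all 12. *Sln* rose 4.25-fold in Laminectomy (log2 fold change 2.09, SE 0.682, edgeR adjusted p = 0.0202), and this call was lost without No operation 4 (1.87, adjusted p = 0.0542) or Laminectomy 4 (1.84, adjusted p = 0.0505). In SHAM its log2 fold change was 1.39 (SE 0.671, adjusted p = 0.0917), or 1.77 without SHAM 1 (adjusted p = 0.00574).

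Of other known brakes on SERCA, *Pln* and *Mrln* were tested, and both went down. *Pln*, encoding phospholamban, had 2.66 to 4.42 CPM in No operation mice, at most 0.635 CPM after SHAM surgery, and at most 1.46 CPM in Laminectomy mice. *Mrln*, encoding myoregulin, had 9.72 to 23.0 CPM in No operation mice, at most 1.82 CPM after SHAM surgery, and at most 2.69 CPM in Laminectomy mice. *Pln* fell by 3.16 on the log2 scale in SHAM (SE 0.742, edgeR adjusted p = 0.00318) and fell by 2.35 in Laminectomy (SE 0.702, adjusted p = 0.0130). *Mrln* fell by 3.60 in SHAM (SE 0.564, adjusted p = 0.000223) and fell by 3.16 in Laminectomy (SE 0.549, adjusted p = 0.000517). *Pln* counts were low, from 0 to 63 per mouse, and its exons overlap those of *Cep85l* on the opposite strand. *Strit1*, encoding the SERCA activator DWORF, had at most 6 counts in any mouse and was not tested. *Atp2a3*, the pump gene of blood and lining cells, fell by 1.46 in SHAM (SE 0.404, adjusted p = 0.00831), and its Laminectomy value of −0.80 was not called (SE 0.397, adjusted p = 0.101). The difference between the surgical groups in *Atp2a3* was not called either.

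*Casq1*, the main calsequestrin of skeletal muscle (identifier 12372, chromosome 1 from 172209894 to 172219868), fell with the release genes. No operation mice had 1087, 2053, 2093 and 2619 CPM. SHAM mice had 29.1, 171, 166 and 229 CPM, and Laminectomy mice 81.5, 359.5, 236 and 309 CPM. The groups did not overlap, and replicate 1 was the lowest mouse of all 3 groups. *Casq1* was 13.2-fold lower in SHAM (log2 fold change −3.72, SE 0.623, edgeR adjusted p = 0.000350) and 7.97-fold lower in Laminectomy (−2.99, SE 0.603, adjusted p = 0.00132).

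*Casq2*, the calsequestrin of heart, which slow fibres also hold (identifier 12373, chromosome 3 from 102086415 to 102146514), was not called in any comparison. It had 199, 67.5, 88.5 and 100.0 CPM in No operation mice. Levels were 7.53, 125, 124 and 181 CPM after SHAM surgery, and 117, 195, 166 and 193 CPM in Laminectomy mice. The groups overlapped because of 2 libraries: No operation 1 was the highest of all 12 mice and SHAM 1 the lowest, and the other 3 SHAM mice lay above the other 3 No operation mice. The log2 fold change of *Casq2* was −0.05 in SHAM (SE 0.647, edgeR adjusted p = 0.949) and 0.56 in Laminectomy (SE 0.648, adjusted p = 0.478). The SHAM value ranged from −0.40 to 0.36 when single mice were left out.

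*Jph1* encodes junctophilin 1, which ties the reticulum to the surface membrane. The gene (identifier 57339, chromosome 1 from 16964560 to 17097889) had 277, 242, 293 and 322 CPM in No operation mice. Levels were 6.69, 22.7, 26.5 and 30.9 CPM after SHAM surgery, and 17.0, 44.1, 42.1 and 45.0 CPM in Laminectomy mice. Surgical and No operation mice were separate by a wide margin. The decrease was 13.1-fold in SHAM (log2 fold change −3.71, SE 0.440, edgeR adjusted p = 3.57e-05) and 7.66-fold in Laminectomy (−2.94, SE 0.424, adjusted p = 0.000154). Its relative *Jph2*, also found in heart, had log2 fold changes of −3.44 (SE 0.434, adjusted p = 5.19e-05) and −2.92 (SE 0.424, adjusted p = 0.000160).

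*Trdn* encodes triadin, which anchors calsequestrin at the release channel. It lies on chromosome 10, 33080554 to 33476709 (identifier 76757). No operation mice had 575, 443, 613 and 609 CPM, SHAM mice 9.67, 27.1, 35.3 and 38.9 CPM and Laminectomy mice 13.4, 53.2, 66.6 and 49.99 CPM. Again the surgical mice were all lower, with replicate 1 lowest in both surgical groups. *Trdn* fell 20.2-fold in SHAM (log2 fold change −4.33, SE 0.522, edgeR adjusted p = 3.9e-05) and 12.2-fold in Laminectomy (−3.61, SE 0.504, adjusted p = 0.000125), which placed it next to *Atp2a1* among the members.

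**Figure D2:**
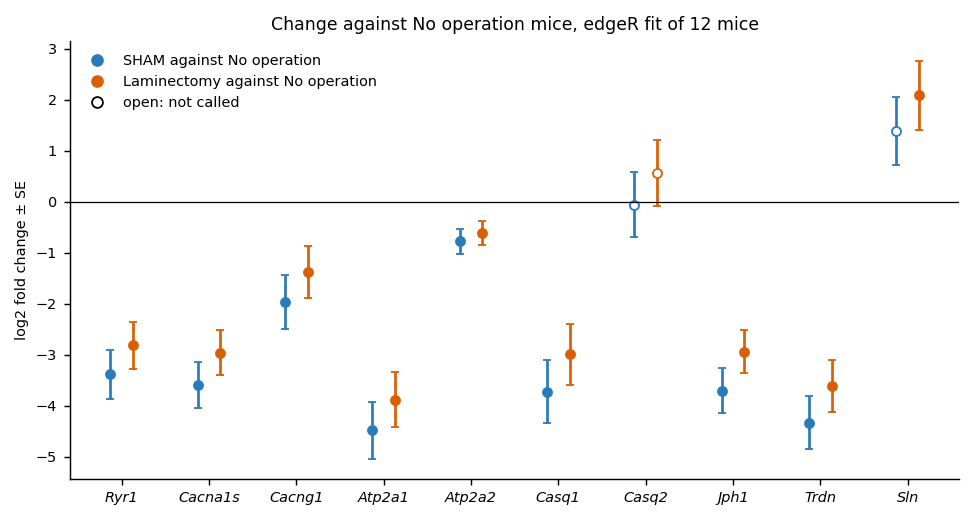
Log2 fold change of each member against No operation mice, with its standard error, from the edgeR fit of 12 mice (SHAM, blue; Laminectomy, orange); open circles are genes not called. The values run from −4.49 for *Atp2a1* in SHAM to 2.09 for *Sln* in Laminectomy, and *Casq2* is at −0.05 in SHAM and 0.56 in Laminectomy, both with wide errors.

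The paralogues of pump and store were then compared with each other. Each ratio was taken within a mouse on counts with 2 added, and the groups were set against each other with exact permutation tests (two-sided), in which 4 against 4 mice cannot give a p below 0.0286. For 1 count of *Atp2a2* there were 22.6, 25.9, 37.6 and 57.3 counts of *Atp2a1* in No operation mice. There were 1.11, 2.71, 3.22 and 2.597 in SHAM mice and 1.23, 4.31, 3.85 and 3.47 in Laminectomy mice. The groups were fully separate from No operation, and the most equal proportions were those of SHAM 1 and Laminectomy 1. The mean log2 ratio of *Atp2a2* to *Atp2a1* was −5.07 ± 0.603 (SD, n = 4) in No operation mice, −1.16 ± 0.685 in SHAM mice and −1.54 ± 0.834 in Laminectomy mice. Expressed per length, *Atp2a2* made up 1.78% ± 0.665 of both pumps in No operation mice, 21.1% ± 8.62 in SHAM mice and 17.6% ± 9.44 in Laminectomy mice (SD, n = 4).

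Among 12 such tests (4 ratios in 3 comparisons), the *Atp2a2* to *Atp2a1* differences of 3.90 in SHAM and 3.53 in Laminectomy each reached the smallest exact p, 0.0286, or 0.0571 after Benjamini-Hochberg adjustment, so neither passed 0.05 after correction. For *Casq2* to *Casq1* the log2 ratios were −2.45, −4.92, −4.56 and −4.71 in No operation mice, −1.93, −0.45, −0.41 and −0.34 in SHAM mice and 0.53, −0.88, −0.51 and −0.68 in Laminectomy mice. Both surgical groups lay above every No operation mouse, though No operation 1 and SHAM 1 came close to each other. The differences were 3.38 in SHAM and 3.78 in Laminectomy (exact permutation p = 0.0286, adjusted 0.0571, for each). As a share per length of both calsequestrins, *Casq2* was 4.85% ± 4.46 in No operation mice, 30.2% ± 9.77 in SHAM mice and 35.7% ± 10.2 in Laminectomy mice (SD, n = 4). The No operation mean rested on No operation 1, at 11.5% against 2.29% to 2.93% in the other 3 mice, and without it was 2.62% ± 0.318 (SD, n = 3).

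*Sln* set against *Atp2a1* gave the widest differences, 5.50 in SHAM and 6.11 in Laminectomy on the log2 scale (exact permutation p = 0.0286, adjusted 0.0571, for each). The means of the log2 ratio were −10.82 in No operation, −5.32 in SHAM and −4.71 in Laminectomy mice, and no surgical mouse overlapped a No operation mouse. The voltage sensor and its release channel were set against each other as well. Counts of *Ryr1* for 1 count of *Cacna1s* were 2.90 to 3.45 in No operation mice, 3.16 to 3.86 in SHAM mice and 3.29 to 3.59 in Laminectomy mice. The ranges overlapped, and the differences in the log2 ratio of *Cacna1s* to *Ryr1* were −0.16 in SHAM and −0.14 in Laminectomy (exact permutation p = 0.0857, adjusted 0.129, for each). Between Laminectomy and SHAM mice the differences were −0.37 for the pumps, 0.40 for the calsequestrins, 0.03 for sensor and channel and 0.60 for *Sln* to *Atp2a1*, with exact permutation p between 0.457 and 0.743.

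**Figure D3:**
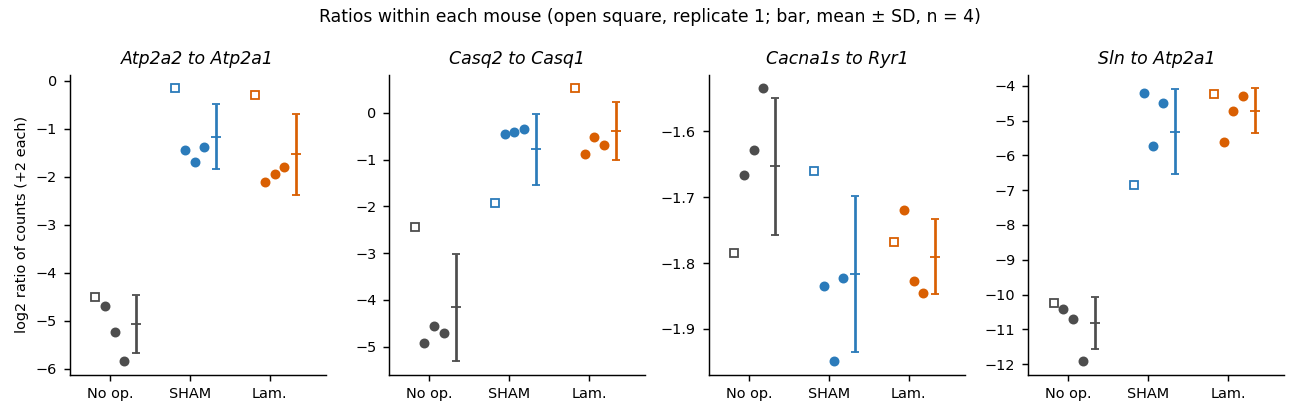
Log2 ratio of counts (2 added to each) within each mouse for 4 pairs of members, by group; open squares are replicate 1, and bars are the mean ± SD of 4 mice. The ratios of *Atp2a2* to *Atp2a1*, *Casq2* to *Casq1* and *Sln* to *Atp2a1* are higher in every surgical mouse than in any No operation mouse, while *Cacna1s* to *Ryr1* stays between −1.95 and −1.53.

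To set the members beside the fall in fibre transcripts, each was expressed relative to the mean log2 CPM of the 14 fast fibre genes of the same mouse. This is a description without a test, and that mean was 12.47 ± 0.250 in No operation, 8.51 ± 1.02 in SHAM and 9.12 ± 0.930 in Laminectomy mice (SD, n = 4). Relative to it, *Ryr1*, *Cacna1s*, *Casq1* and *Jph1* differed from No operation mice by −0.03 to 0.34 in SHAM and by 0.23 to 0.47 in Laminectomy. The differences of these 4 genes from No operation mice were thus within 0.5, and the signs of *Ryr1* and *Cacna1s* in SHAM and of *Cacna1s*, *Casq1* and *Jph1* in Laminectomy, and of *Jph1* in SHAM, turned when the median of the 14 genes was used in place of the mean. *Atp2a1* (−0.69 in SHAM, −0.74 in Laminectomy) and *Trdn* (−0.53 and −0.47) had lower values against the fibre genes than in No operation mice, by either reference. Of these, *Trdn* in Laminectomy overlapped No operation mice. Of the 4 genes within 0.5, only *Ryr1* in Laminectomy did not overlap them.

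Relative to the fibre genes, the remaining 4 members were higher in both surgical groups than in No operation mice, with no overlap. The differences from No operation mice were 1.58 in SHAM and 1.92 in Laminectomy for *Cacng1*, 3.21 and 2.79 for *Atp2a2*, 3.35 and 4.01 for *Casq2* and 4.82 and 5.37 for *Sln*. Marker lists of other cell types were summed as well, and they did not all change in the same direction. Markers of regenerating muscle (10 genes such as embryonic myosin *Myh3*) summed to 192 to 653 CPM in No operation mice, to 51.1 CPM in SHAM 1 and 1815 to 2978 CPM in SHAM 2 to 4, and to 1861 to 3016 CPM in Laminectomy mice. Of these 10 genes, 7 were called higher in SHAM and 8 in Laminectomy.

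Slow fibre markers (7 genes) summed to 1673 to 3882, 625 to 1303 and 813 to 1194 CPM in No operation, SHAM and Laminectomy mice, with 3 of 7 called lower in each comparison and none higher. Fibroblast markers (5 genes) summed to 5665 to 20687 CPM with No operation, to 43548 to 59549 CPM in SHAM and to 39861 to 45821 CPM in Laminectomy mice, with 4 and 3 of 5 called higher and 1 called lower in each comparison. Macrophage markers (5 genes) summed to 494 to 1442 CPM, 3774 to 6956 CPM and 2874 to 5266 CPM, and all 5 were called higher in both comparisons. Smooth muscle markers (5 genes) summed to 248 to 425, 354 to 709 and 508 to 776 CPM, with 1 called higher and 2 lower in SHAM and 2 called in each direction in Laminectomy. Cardiac markers (6 genes) stayed at 9.26 to 13.99 CPM in sum in No operation mice and reached 207 CPM in SHAM and 258 CPM in Laminectomy mice, but the defining *Nppa* and *Myl7* had at most 3 counts in every mouse. Of the 3 cardiac markers tested, 2 were called higher and 1 lower in each comparison. The part of any of these cell types in the levels of *Atp2a2*, *Casq2*, *Cacng1* and *Sln* was not tested.

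**Figure D4:**
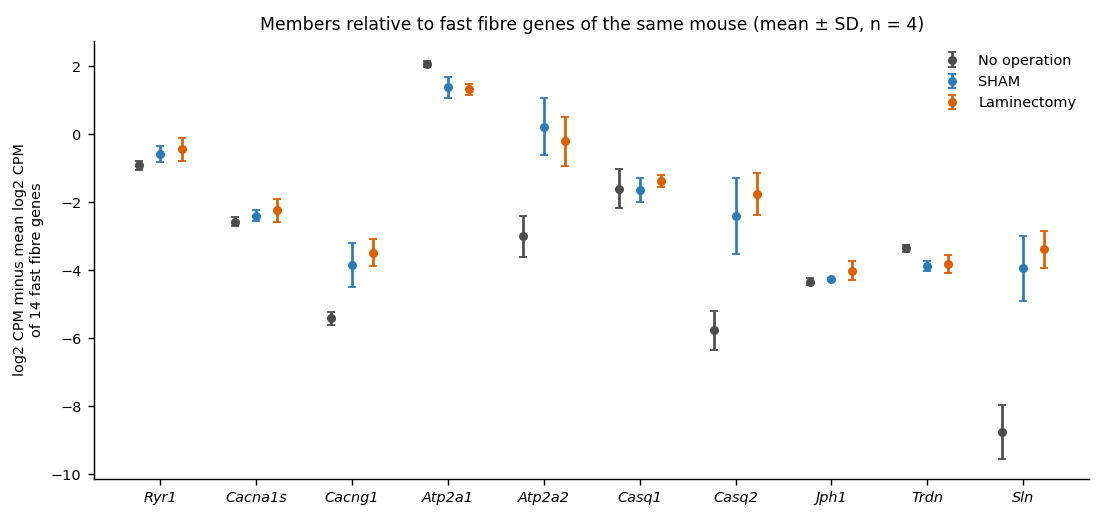
Log2 CPM of each member minus the mean log2 CPM of 14 fast fibre genes of the same mouse (mean ± SD of 4 mice per group). *Cacng1*, *Atp2a2*, *Casq2* and *Sln* lie higher in both surgical groups than in No operation mice, by 1.58 to 5.37 on the log2 scale, whereas *Atp2a1* and *Trdn* lie lower than in No operation mice.

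Levels were also set per length of exon, for a rough order of different genes. The length was that of all annotated exons of a gene merged, which can exceed that of the transcript expressed. By this measure the order of the members in No operation mice began with *Atp2a1* at 6903 ± 1094 CPM per kilobase and *Casq1* at 1006 ± 327 (SD, n = 4), each apart from the next. *Cacna1s* (148), *Ryr1* (139), *Atp2a2* (121) and *Cacng1* (107) followed with ranges that overlapped from one to the next. *Trdn* (59.9), *Jph1* (56.8) and *Casq2* (41.5) also overlapped, and *Sln* (10.5) stood alone at the bottom. After surgery *Atp2a1* and *Casq1* still led, at 308 and 76.2 CPM per kilobase in SHAM and 469 and 126 in Laminectomy mice. *Atp2a2* (70.8 and 79.8), *Casq2* (40.1 and 61.3), *Sln* (27.6 and 44.9) and *Cacng1* (27.5 and 41.6) came next, ahead of *Ryr1* (13.4 and 19.8) and *Cacna1s* (12.3 and 19.1). *Jph1* (4.34 and 7.41) and *Trdn* (2.97 and 4.90) were last. In SHAM mice each gene's range overlapped that of the next in order, and in Laminectomy mice so did all but *Cacna1s* and *Jph1*.

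Between the surgical groups no member was called by edgeR, where none of the 14765 genes was called (0.0%) and 16.0% had an unadjusted p below 0.05. None of the members had an unadjusted p below 0.05, and DESeq2, which called 4.35% of its genes, called no member either. The estimates were higher in Laminectomy mice for all 10 members, from 0.17 for *Atp2a2* (SE 0.237, edgeR adjusted p = 0.744) to 0.77 for *Jph1* (SE 0.401, adjusted p = 0.371), with a median of 0.62 beside 0.00 over all genes tested. SHAM 1 was the lowest of all 12 mice for 9 members, the exception being *Atp2a2*. The other 3 SHAM mice averaged 19.1 times its level for *Casq2*, 14.3 times for *Sln* and 3.29 times for *Atp2a1*. Laminectomy 1 was the lowest of its group for all 10 members. Without SHAM 1 the median difference was 0.33, and without SHAM 1 and Laminectomy 1 it was 0.55, with no member called in either case. All 14 fast fibre genes were likewise estimated higher in Laminectomy than in SHAM mice (median 0.58, none called).

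A wider list of 45 calcium handling genes outside the members was looked up, of which 44 were in the table and 42 tested. In SHAM 26 were called lower and 2 higher (median −1.26), and in Laminectomy 25 lower and 3 higher (median −0.94). Of all genes tested, 25.1% were called lower and 25.7% higher in SHAM (median −0.00). In Laminectomy these shares were 24.4% lower and 24.2% higher (median 0.01). The deepest decreases were those of *Pvalb*, *Tmem38a* and *Camk2a* in both comparisons. *Pvalb*, encoding parvalbumin, the soluble calcium buffer of fast fibres, had 1722 to 5593 CPM in No operation mice, 36.4 to 101 CPM after SHAM surgery, and 19.9 to 237 CPM in Laminectomy mice. It fell by 5.57 on the log2 scale in SHAM (SE 0.742, edgeR adjusted p = 7.25e-05) and fell by 4.45 in Laminectomy (SE 0.703, adjusted p = 0.000277). *Tmem38a*, encoding the TRIC-A channel that balances charge across the store membrane during release, had log2 fold changes of −3.81 and −3.29. *Camk2a*, a calmodulin-dependent kinase gene, had −3.77 and −3.19. Within the store, *Hrc*, encoding a calcium-binding protein of the reticulum, was at log2 fold changes of −3.51 and −2.85, *Srl*, encoding sarcalumenin, at −2.30 and −1.69, and *Asph*, whose products include junctin, at −0.94 and −0.995, all of them called in both comparisons.

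The genes of the wider list called higher were *Fkbp1b* and *Slc8a1* in both comparisons and *Jph3* in Laminectomy. *Slc8a1*, a sodium-calcium exchanger gene also used by heart, smooth muscle and other cells, had 17.0 to 35.1 CPM in No operation mice, 52.4 to 72.2 CPM after SHAM surgery, and 46.3 to 54.8 CPM in Laminectomy mice. Its log2 fold changes were 1.43 (SE 0.200, edgeR adjusted p = 0.000102) and 1.13 (SE 0.199, adjusted p = 0.000564). *Fkbp1b*, encoding the ryanodine receptor-binding protein calstabin 2, rose from 1.54 to 2.08 CPM in No operation mice to 4.45 to 8.49 CPM in SHAM and 4.40 to 7.25 CPM in Laminectomy mice. Its log2 fold changes were 1.74 (SE 0.240, adjusted p = 9.25e-05) and 1.54 (SE 0.240, adjusted p = 0.000248). *Jph3*, a junctophilin of the brain, had 0.573 and 0.582 CPM in 2 Laminectomy mice and 4.47 and 2.80 CPM in Laminectomy 2 and 3, the libraries with neuron and glia marker signal. In No operation mice *Jph3* had 2 to 7 counts, or 0.140 to 0.441 CPM. It rose by 2.78 in Laminectomy (SE 0.692, edgeR adjusted p = 0.00478), and the part of that signal in its value was not tested. When at least 10 counts were required in every sample, *Jph3* was not among the genes called.

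**Figure D5:**
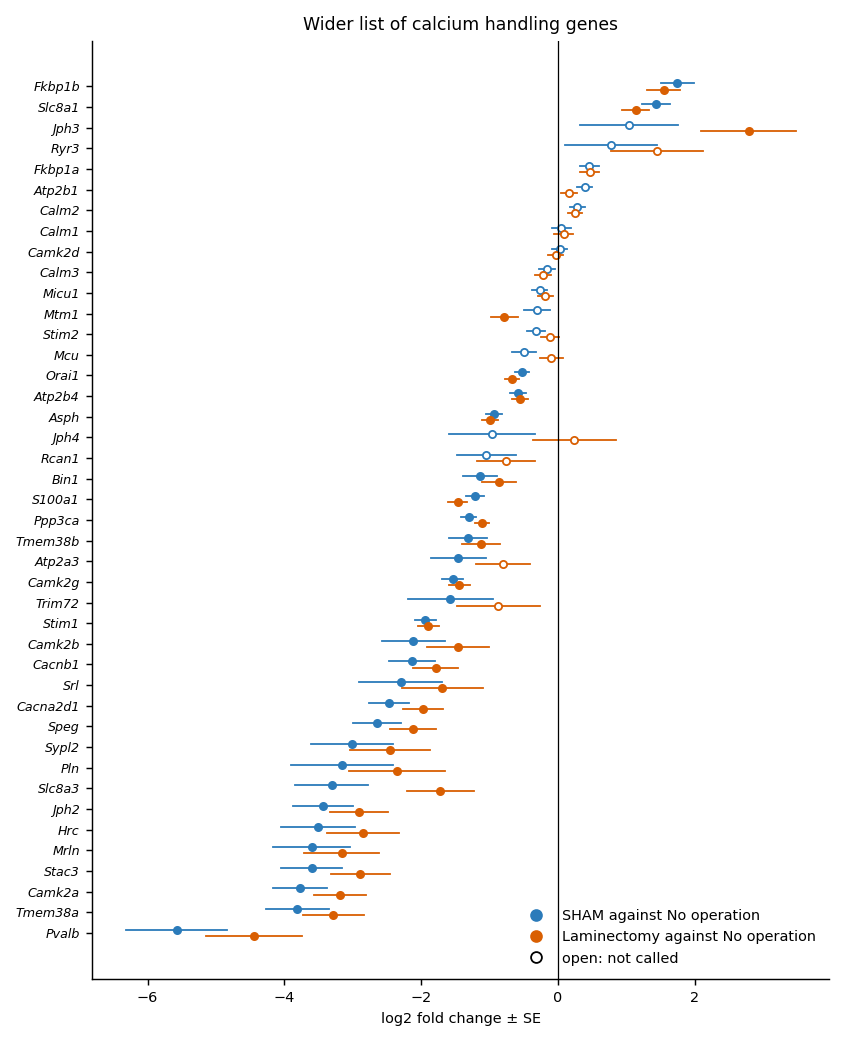
Log2 fold change with standard error of the 42 tested genes of the wider calcium handling list against No operation mice (SHAM, blue; Laminectomy, orange; open circles, not called). Most genes lie left of 0, down to −5.57 for *Pvalb* in SHAM, and *Fkbp1b* and *Slc8a1* lie to the right in both comparisons.

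For 5 members, the 3 other genes with a mean of at least 10 CPM whose log2 CPM followed them most closely over the 12 mice were looked up. The points share libraries and the split between groups, so Pearson's r is given as a description. *Ryr1* was closest to *Ttn*, *Mypn* and *Tmem182* (r = 0.998, 0.997 and 0.997), and *Atp2a1* to *Cmya5*, *Kcna7* and *Actn3* (r = 0.998 for each). *Casq2* was closest to *Arpp21* (0.985), *Bex1* (0.984) and *Lrrn1* (0.969), and *Sln* to *Tnnt2* and *Chrnd* (0.925 for each) and *Ccdc141* (0.923). In *Arpp21* the same 2 libraries stood apart within their groups, with 23.9 CPM in No operation 1 against 5.86 to 11.3 CPM in the other No operation mice, and 0.450 CPM in SHAM 1 against 16.6 to 25.4 CPM in SHAM 2 to 4. *Chrnd*, a subunit gene of the acetylcholine receptor of muscle, had 3.93 to 6.62 CPM in No operation mice, 0.169 CPM in SHAM 1, 23.9 to 36.0 CPM in SHAM 2 to 4 and 27.7 to 38.7 CPM in Laminectomy mice. *Atp2a2* had no partner as close, with *Haus2* (0.902), *Pja2* and *Rassf3* (0.891 for each) first.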

How the data were processed

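RNA of 12 mice (4 per group by the labels, although the study gives 3 per group without naming them) was sequenced by the authors from stranded poly(A) libraries. The labels name STAR 2.6.1b, featureCounts 2.0.1, DESeq2 1.30.1 and GRCm38. The authors deposited 1 table of values per gene that are not normalized and are treated as estimated counts, since 10.2% of them are not whole, for a reason not given in the sources used here; no member has such a value. Values were rounded to whole counts. Total counts were 16802989 to 18077868 per mouse, and depth covers counting error only. The study names default settings for featureCounts, under which strand is ignored, so reads where genes overlap on opposite strands cannot be told apart. Nothing in the labels says how the 4 samples of a group were raised, so p-values measure the spread between these samples.

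Genes were filtered with filterByExpr (14765 kept, 4231 removed), scaled by TMM (factors 0.849 to 1.13) and fitted together for all 12 mice with glmQLFit and glmQLFTest (edgeR 4.0.16, R 4.3.3), with a common dispersion of 0.0799. Benjamini-Hochberg adjustment ran over all genes tested. The SE is the absolute log2 fold change divided by the square root of F. Log2 CPM used a prior count of 2. Exon lengths (all annotated exons of a gene merged) and coordinates came from GENCODE M21 and sequences from RefSeq. Ratios were tested with exact permutation tests (two-sided). Alternatives were DESeq2 1.42.0, other scaling, filters and thresholds, the replicate number as a block, 2-group fits, and leaving out each mouse. The fit was tested on simulated counts. All members were named, and of the wider list the 3 largest called increases and decreases and fixed partners of the members. The members and lists were chosen with earlier results of these data known. *Hrc*, *Srl* and the other partners belong to that fixed set, and *Arpp21* and *Chrnd* were described further after their values were seen.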

Additional observations from a re-analysis of the deposited data

Results flagged for a closer look

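Among 42 groups of 4 mice examined (10 members on log2 CPM and 4 log2 ratios, in 3 groups), 10 held a mouse that stood apart from the other 3; its gap to the nearest was judged by Dixon's 95% limit for 4 values. Chance alone gives about 1 in 20 such groups, and the members share libraries, so these are not 10 separate events. SHAM 1 was the low mouse for *Ryr1* at 72.7 CPM, *Cacna1s* at 22.9 CPM, *Cacng1* at 4.72 CPM, *Casq1* at 29.1 CPM and *Casq2* at 7.53 CPM. Laminectomy 1 was the low mouse for *Ryr1* at 219.8 CPM, *Cacng1* at 27.7 CPM and *Jph1* at 17.0 CPM. In the log2 ratio of *Casq2* to *Casq1*, No operation 1 stood above its group at −2.45 and SHAM 1 below its group at −1.93. In SHAM 1 the regenerating muscle markers summed to 51.1 CPM, against at least 1815 CPM in the other SHAM mice, and its part in these values was not tested.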

How the results depend on the processing

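No called member changed sign in any edgeR or DESeq2 fit; *Casq2* in SHAM, not called, did. Genes called at an absolute log2 fold change above 1 were 4589 in SHAM (7502 above 0.5) and 4323 in Laminectomy (7182). Members called higher in SHAM were 1 (*Sln*) with DESeq2 (adjusted p = 0.0493), without SHAM replicate 1 and without replicate 1 of SHAM and of Laminectomy, an alternative added after the data were seen, against 0; in Laminectomy they were 0 to 1 over the fits that left out a mouse. Total counts in place of TMM moved the median of all genes to 0.25 in SHAM and 0.33 in Laminectomy, and the split from 3799 higher and 3703 lower to 5179 and 2671 in SHAM and from 3577 and 3605 to 5456 and 2347 in Laminectomy. Members called lower were then 7 in SHAM and 6 in Laminectomy, and wider list genes called higher 5 and 6 (against 2 and 3), *Fkbp1a* and *Calm2* among them in both. Wider list genes called higher in SHAM were 5 with no minimum fold change, 4 without replicate 1 of both surgical groups, and 2 to 3 over the fits that left out a mouse. *Atp2a2* in Laminectomy ranged from −0.76 to −0.38 over those fits and was also lost with no filter (adjusted p = 0.0520) and with only 2 groups fitted (0.0579); without either surgical replicate 1 it was −0.49 (0.121). DESeq2 called 696 genes between Laminectomy and SHAM (4.35% of its genes) against 0 by edgeR. Of the wider list DESeq2 called 2, *Ryr2* and *Slc8a3*. By edgeR 4 of the 42 wider list genes tested had an unadjusted p below 0.05, beside 16.0% of all genes tested. With the median of the fibre genes as reference, the median over members was −0.11 in SHAM (0.26 with the mean) and −0.0036 in Laminectomy. Same-numbered mice shared only a number (r of their deviations from −0.23 to 0.35), and a replicate block left 0 members called higher in Laminectomy (*Sln* 1.79, adjusted p = 0.0642, *Atp2a2* −0.60, 0.0884) and changed no other member's call. With 4 mice a group, exact tests over 12 ratios could not pass after adjustment unless more of them reached the smallest p. Depth limits *Ryr2*, *Jph3*, *Pln* and *Strit1*, at few counts per mouse.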
